A study of Mus musculus with 4 samples.

Results

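The 9 genes described here encode chaperones of the endoplasmic reticulum and transcription factors of its stress response: Hspa5, Hsp90b1, Pdia3, Pdia4, Creld2, Calr, Canx, Xbp1 and Ddit3. They were chosen by name, as every probe set whose single annotated gene symbol is one of the 9. All 9 were on the array, in 10 of its 12488 probe sets and among 8251 genes with a symbol of their own, and Canx was the gene with 2 probe sets. Several short probes against the same transcript make up a probe set, whose value is a fluorescence intensity.

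Proteins that enter the secretory pathway fold in the endoplasmic reticulum, where Hsp70 and Hsp90 type chaperones, lectin chaperones that bind sugar chains, and disulfide isomerases assist them. When unfolded proteins accumulate, the membrane sensors IRE1, PERK and ATF6 start the unfolded protein response, which raises the chaperone genes through XBP1 and ATF6 and induces the transcription factor CHOP, the product of Ddit3, through PERK and ATF4. Neurons use the same machinery to fold receptors, channels and secreted peptides.

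Total RNA came from the CA1 region of the hippocampus of young male C57BL/6J mice, and each sample was read on 1 Affymetrix MG-U74Av2 array. Samples were taken 1, 2, 4 and 6 h after the last of 3 foot shocks of 0.5 mA, with 1 array per time and 4 in all. Per the labels, which call all 4 samples shock alone, the mice had entered the new chamber 2 h ahead of the shocks, and no genetic change or drug is named. How many animals a sample pools is not given. Animals without shock were not analysed here, so each value stands against the other times. With no replicates, a difference between 2 times has no test, and precision is limited by there being 4 arrays.

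Intensities were scaled to a common trimmed mean on each array, and values below 100.8, the 40th percentile, were treated as a floor that gives only a bound. The actin control had a 3′ to 5′ ratio of 1.84 at 1 h and 2.70 at 2 h, then 1.79 at 4 h and 1.74 at 6 h, so the 2 h array stood apart in this sign of RNA quality. The Gapdh control ratio was 3.98, 4.82, 3.85 and 3.24 at the same times, also highest at 2 h and above that of actin on every array. The 6 h array stood apart in Ttr, the transthyretin gene of the choroid plexus, at 4482 against 89.9 to 198 at the earlier times. Of 11 CA1 pyramidal neuron markers, 6 were on the array and 5 had a mean above the floor. Over the 4 arrays Wfs1 read 1637 to 2608, Neurod6 648 to 1263, Nrgn 3619 to 4781, Man1a 984 to 1486 and Pou3f1 355 to 484, while Camk2a was above the floor at 1 h alone, at 110. Wfs1 and Neurod6 were highest at 4 h, Nrgn and Man1a at 6 h and Pou3f1 at 1 h. In such bulk RNA, fewer cells of a type and less RNA per cell cannot be told apart.

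The promoters of most of these genes hold the letters of the endoplasmic reticulum stress element (ERSE), to which NF-Y and ATF6 are known to bind. It was searched as CCAAT, 9 bases of any kind and CCACG. The sites are shown because this element is what the genes are known to share. The windows run from 250 bases before to 50 after the RefSeq gene start in GRCm38.p6, and both strands were searched. In the lines below, capitals mark the CCAAT and the last 5 letters, each site is written 5′ to 3′ along its own strand, and substitutions count positions from 1 at the first C of CCAAT.
Hspa5, chr2:34772025-34772043, plus strand: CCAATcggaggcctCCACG
Hsp90b1, chr10:86705638-86705656, minus strand: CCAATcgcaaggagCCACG
Hsp90b1, chr10:86705533-86705551, plus strand: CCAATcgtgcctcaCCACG
Creld2, chr15:88819520-88819538, minus strand: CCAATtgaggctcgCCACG
Calr, chr8:84847075-84847093, plus strand: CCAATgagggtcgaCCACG
Canx, chr11:50325800-50325818, minus strand: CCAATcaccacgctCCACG
Pdia3, chr2:121413873-121413891, plus strand, G19A: CCAATcggcggctgCCACA
Pdia4, chr6:47813602-47813620, plus strand, G19T: CCAATcacgggctgCCACT
Ddit3, chr10:127290702-127290720, minus strand, C15G: CCAATcagaaagcgGCACG

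Hspa5, Hsp90b1, Creld2, Calr and Canx matched the element in full, 5 of 9 genes, against 0.119% of 32851 RefSeq promoter windows of the same length. With at most 1 base different in the last 5 letters, 8 of 9 matched, against 0.998% of all windows. The element was chosen because these genes are known to share it, so neither comparison is a test. Hsp90b1 had 2 full sites and another site that differed by C18G. Xbp1 had no such match and no CCAAT in its window, which says nothing beyond these letters and this window. The related motifs ERSE-II (ATTGG, 1 base of any kind and CCACG), the UPRE core (TGACGTGG) and the amino acid response element (TGATGCAAT) matched in 0 of the 9 windows, against 0.0365%, 0.676% and 0.192% of all windows. Every ERSE match contains a CCAAT box, and CCAAT alone was found in 37.4% of all windows.

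**Figure D1:**
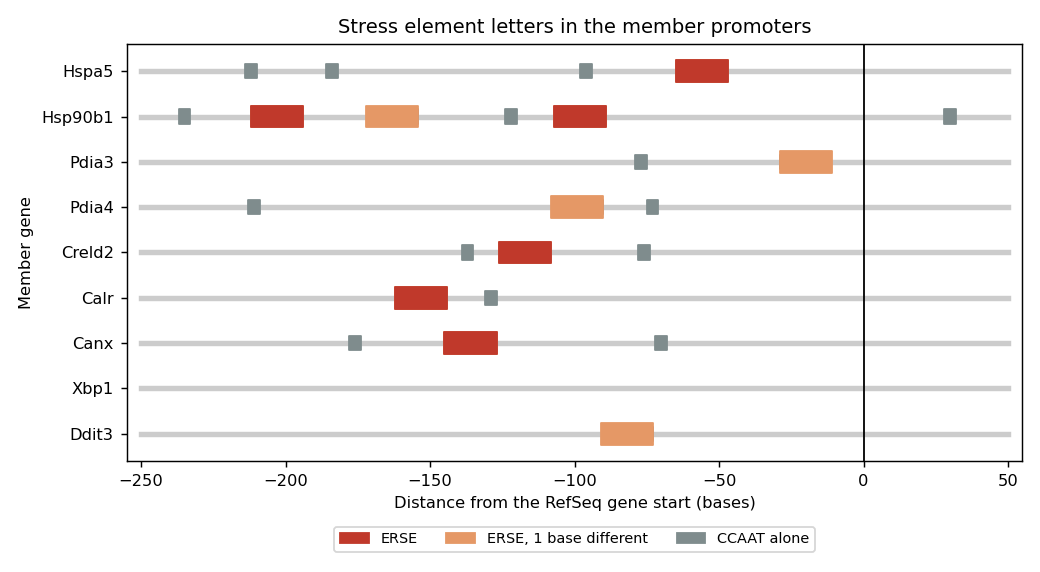
Positions of ERSE matches in the promoter windows of the 9 genes, with distance from the RefSeq gene start in bases on the x axis and 1 row per gene. Red bars are full matches (5 genes), orange bars differ by 1 base in the last 5 letters, grey bars are CCAAT without the rest, and the Xbp1 row holds none.

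The whole windows of Hspa5 and Creld2 are given because both genes had a full ERSE and read highest at 2 h. This choice used their values, and Hspa5 at 2 h was 1.02-fold its 1 h value. Hsp90b1 and, on its brighter probe set, Canx also matched in full but read highest at 4 h. A link between the element and the time of highest value was not tested. Capitals mark the same 10 letters of the element, on the gene's own strand, so that in Creld2 the element reads backwards.
Hspa5, chr2:34771840-34772139, plus strand: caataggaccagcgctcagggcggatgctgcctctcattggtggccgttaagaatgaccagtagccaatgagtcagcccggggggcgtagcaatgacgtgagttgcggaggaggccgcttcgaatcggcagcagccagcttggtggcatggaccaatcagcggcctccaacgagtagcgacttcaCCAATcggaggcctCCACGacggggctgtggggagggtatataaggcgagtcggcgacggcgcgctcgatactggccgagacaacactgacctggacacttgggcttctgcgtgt
Creld2, chr15:88819396-88819695, plus strand: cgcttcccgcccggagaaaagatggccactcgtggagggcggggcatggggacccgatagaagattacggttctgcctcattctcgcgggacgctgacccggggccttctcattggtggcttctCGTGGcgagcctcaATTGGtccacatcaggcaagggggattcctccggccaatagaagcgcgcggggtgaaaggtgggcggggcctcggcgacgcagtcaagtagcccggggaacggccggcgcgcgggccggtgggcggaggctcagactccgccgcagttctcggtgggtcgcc

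Both bright chaperones varied by less than 1.5-fold over the hours. Hspa5, the Hsp70 chaperone BiP that binds unfolded chains and holds the stress sensors inactive, read 3016 at 1 h and 3086 at 2 h, then 2618 at 4 h and 2512 at 6 h on its probe set, 101955_at. The first 2 arrays were above the last 2, and the highest was 1.23-fold above the lowest. Hsp90b1, the Hsp90 chaperone GRP94, read 2247, 2669, 2982 and 2429 at the same times (160499_at). It was lowest at 1 h and highest at 4 h, 1.33-fold apart. Hspa5 at 4 h over 2 h was −0.24 on the log2 scale and Hsp90b1 was 0.16, so these neighbours in the folding pathway went opposite ways over that interval. Among probe sets within 1.5-fold of each one's mean intensity, 39.7% of 610 spread at least as widely as Hspa5 and 19.97% of 666 at least as widely as Hsp90b1.

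The lectin chaperones gave 1 gene with values and 1 without. Canx, the membrane-bound calnexin, read 694 at 1 h and 625 at 2 h, then 716 at 4 h and 604 at 6 h on its brighter probe set, 94886_at. Its other probe set, 160180_at, read 256, 330, 277 and 237. Both were lowest at 6 h, but at 2 h over 1 h they disagreed, at 0.90-fold on the first and 1.29-fold on the second. Their courses differed by a root mean square of 0.20 on the log2 scale, against a median of 0.22 over 640 genes with 2 probe sets above the floor on all 4 arrays. In those 640 genes the probe sets shared their highest time in 32.03%. Calr, the soluble partner calreticulin, read 4.60, 14.5, 40.4 and 50.3 (93523_at), below the floor on all 4 arrays, so these values have no order and the gene enters no comparison.

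The disulfide isomerases differed from each other in timing. Pdia3, the isomerase ERp57 that works with calnexin and calreticulin on glycoproteins, read 438 at 1 h and 248 at 2 h, then 352 at 4 h and 258 at 6 h (101060_at). It was high at 1 h and 4 h and low at 2 h and 6 h, with 1.76-fold between the extremes. Pdia4, the isomerase ERp72, read 196, 215, 127 and 131 (95423_at). It was high at the first 2 times and low at the last 2, 1.69-fold apart and not far above the floor. At 2 h over 1 h Pdia3 was 0.57-fold and Pdia4 1.10-fold, and at 4 h over 2 h they were 1.42-fold and 0.59-fold.

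Creld2, a protein of the endoplasmic reticulum with EGF-like domains that is induced by its stress, read 183 at 1 h and 283 at 2 h, then 175 at 4 h and 171 at 6 h (160119_at). The 2 h array alone was high, and the other 3 lay within 183 and 171. At 2 h over 1 h it was 1.55-fold. The array with this value was also the one with the actin ratio of 2.70, and the part of RNA quality in it was not tested.

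The transcription factors had no maximum at 2 h. Xbp1, whose messenger RNA is spliced by IRE1 to make the active factor, read 886, 744, 878 and 894 (94821_at). It was lowest at 2 h, and its other 3 values lay close together; which splice form the probe set reads is not given in the sources used here. Ddit3, which encodes the pro-apoptotic factor CHOP, read 344, 232, 321 and 226 (101429_at). It was high at 1 h and 4 h and low at 2 h and 6 h, 1.52-fold between the extremes.

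**Figure D2:**
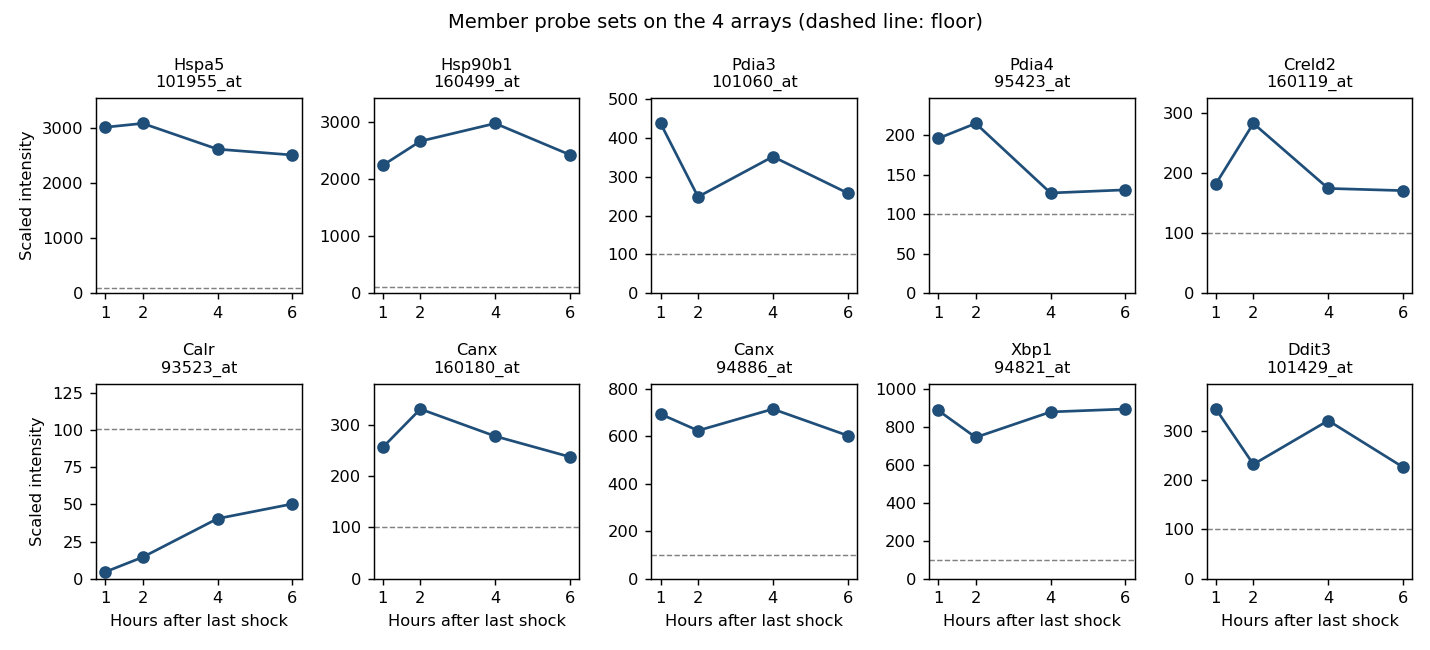
Scaled intensity (y axis, from 0, its own range in each panel) of the 10 probe sets at 1, 2, 4 and 6 h after the last shock (x axis), 1 array per point, with the floor of 100.8 as a dashed line. Pdia4 and Creld2 have their highest point at 2 h, Pdia3 and Ddit3 are low at 2 h and 6 h, and Calr stays under the floor.

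Pdia3 and Ddit3 had the most similar courses of any 2 members. After each gene's log2 values were centred on their own mean, the pair differed by a root mean square of 0.10 over the 4 arrays, the single pair within 0.1 among 28 pairs of members. The median over the 28 pairs was 0.29. Pdia3 and Creld2 were farthest apart, at 0.55. Among all 5017 genes compared, those with a course most like that of Pdia3 were Fadd, at 0.061, Smc4, at 0.065, and Bet1l, at 0.068, and 15 genes lay within 0.1. Those most like Hspa5 were Foxk2, at 0.0075, Cpe, at 0.014, and Acad9, at 0.017, and 550 genes lay within 0.1. Likeness within 0.1 was thus far more common for the course of Hspa5, 1.23-fold from lowest to highest, than for that of Pdia3, at 1.76-fold.

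Between pairs of times, a gene was called when it differed by at least 1.5-fold and was above the floor on both arrays. At 2 h over 1 h Creld2 was higher, against 5.59% of 6942 probe sets, and Pdia3 was lower, against 4.84%. At 4 h over 1 h Pdia4 was lower, at 0.65-fold, against 5.33% of 6886 probe sets. At 6 h over 1 h Pdia3, at 0.59-fold, and Ddit3, at 0.66-fold, were lower, against 5.82% of 6859. At 4 h over 2 h Pdia4, at 0.59-fold, and Creld2, at 0.62-fold, were lower, against 6.95% of 6879, and at 6 h over 2 h the same 2 genes were lower, at 0.61-fold and 0.60-fold, against 7.12% of 6839. At 6 h over 4 h 0 members were called in either direction, against 3.93% higher and 4.12% lower of 6791. Besides Creld2 at 2 h, 0 members were called higher in these pairs, against 3.38% of probe sets at 4 h over 1 h, 3.76% at 6 h over 1 h, 4.46% at 4 h over 2 h and 4.59% at 6 h over 2 h. In all, 9 calls over the 6 pairs concerned 4 genes, 8 of the calls lower at the later time. These calls are not separate, since the 6 pairs reuse the same 4 arrays, and the 2 h value of Creld2 enters each of its calls. Over all probe sets too, more were called lower than higher in each pair except 2 h over 1 h.

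**Figure D3:**
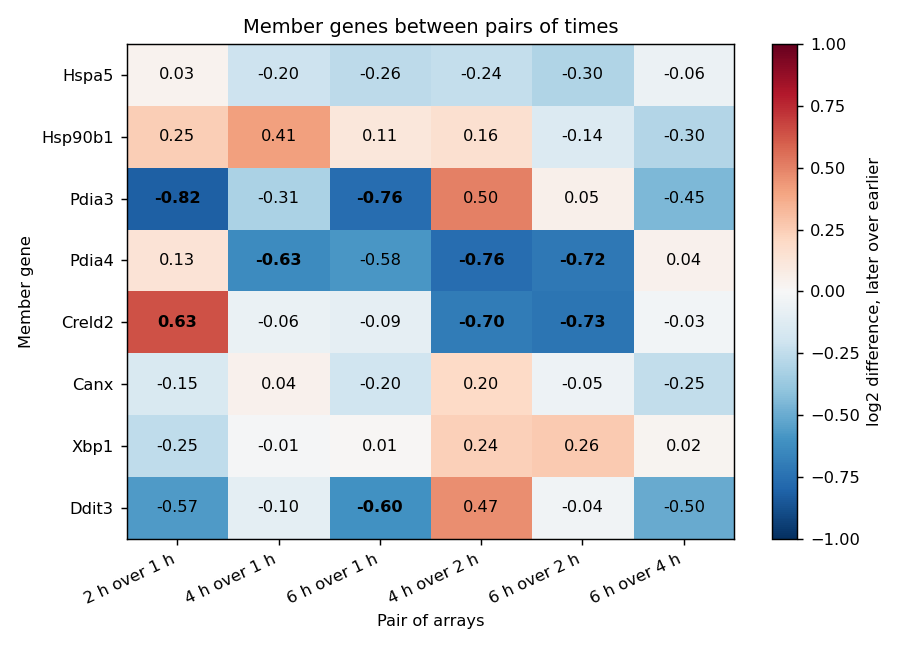
Log2 difference of the later over the earlier time for the 8 member genes with a mean above the floor (rows) in 6 pairs of arrays (columns), with red for higher and blue for lower and bold for at least 1.5-fold. The 9 bold cells lie in the Pdia3, Pdia4, Creld2 and Ddit3 rows, and 1 of them, Creld2 at 2 h over 1 h with 0.63, is positive.

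Of the 8 measured genes, 4 were called in at least 1 pair: Pdia3, Pdia4, Creld2 and Ddit3. Without the 1 h array 2 were called, Pdia4 and Creld2, and without the 2 h array 3 were called, Pdia3, Pdia4 and Ddit3. Over all probe sets above the floor on the 4 arrays, 27.9% of 6442 had a highest value at least 1.5-fold above the lowest. That share was 52.5% of 787 probe sets with a mean intensity from the floor to 200, where Pdia4 lies, and 46.3% of 1692 from 200 to 400, where Creld2, Pdia3 and Ddit3 lie. It was 22.2% of 2057 from 400 to 1000, where Canx and Xbp1 lie, and it was 5.36% of 504 from 2000 to 4000, where Hspa5 and Hsp90b1 lie. A spread such as that of the 4 called genes was common at their brightness. Among probe sets within 1.5-fold of the gene's own mean intensity, 20.2% of 1983 spread at least as widely as Pdia3, 31.3% of 1335 as Pdia4, 34.8% of 1731 as Creld2 and 42.3% of 1970 as Ddit3.

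**Figure D4:**
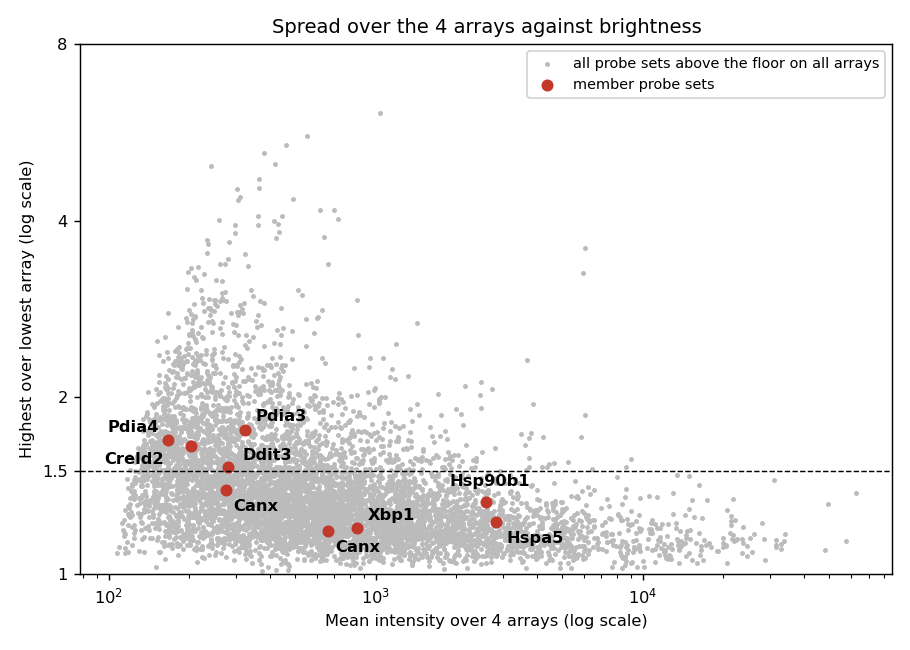
Ratio of the highest to the lowest array (y axis, log scale) against mean intensity over the 4 arrays (x axis, log scale) for 6442 probe sets above the floor on all arrays, in grey, with the 9 member probe sets in red and a dashed line at 1.5-fold. The 4 members above the line lie among dim probe sets, where 46.3% to 52.5% pass it, and Hspa5 and Hsp90b1 lie below it.

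The median of the members was lowest at 6 h. Of the 8 genes, 4 had their lowest value then, against 26.1% of all genes with a mean above the floor. The members' median at 6 h was −0.25 on the log2 scale from the mean of the other 3 times. Below it lay 7 of 8 genes, and Xbp1, at 0.10, was the 1 above that mean. Over 5671 genes with a mean above the floor the same median was −0.01, with 48.9% above. At 1 h the members' median was 0.12 and at 4 h 0.11, and at 2 h it was −0.01 with 4 above and 4 below. The members' range was widest at 2 h, where Creld2 lay at 0.69 and Pdia3 at −0.46, on the array with the actin ratio of 2.70. At 6 h the choroid plexus and ependymal markers summed to 7996 intensity units over the 7 of 12 genes on the array, against 1630 to 2209 at the earlier times. Most of the 6 h sum was Ttr, at 4482, and Igf2, at 2379. Foxj1, an ependymal marker, was instead lowest at 6 h, at 244, Aqp1 was just under the floor at 6 h, at 100.5, and Cldn2 was below the floor on all 4 arrays. Other marker lists moved at 6 h too. The median from the mean of the other times was 0.23 for oligodendrocytes, 0.25 for 2 measured blood cell genes, 0.20 for CA1 pyramidal neurons and −0.17 for endothelial and mural cells. Of 8 oligodendrocyte genes 6 were highest at 6 h, against 23.3% of all genes, but Mal was lowest then, at 1218. On their second probe sets, Mbp was lowest at 6 h, at 575, and Mag was highest at 2 h, at 121. The part of these cell types in the members' values at 6 h was not tested.

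A straight line over the hours was the test that 4 single arrays allow. It was fitted with limma to 7427 probe sets with a mean above the floor, with 2 residual degrees of freedom, and counts departure from the line as error. After Benjamini-Hochberg adjustment 0 probe sets passed 0.05, or 0% of them, and 450 did so unadjusted, or 6.06%. Among the 8 members, 6 had a falling and 2 a rising slope (4 and 4 without the 6 h array), and limma's adjusted p ran from 0.807 for Pdia4 to 0.959 for Hsp90b1. The slope of Pdia4 was −0.15 per hour on the log2 scale, with a 95% interval of −0.30 to −0.0085 and an unadjusted limma p of 0.0417. Hspa5 had −0.06 per hour, with an interval of −0.16 to 0.039, so neither a fall nor a level course was shown.

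The other genes of the pathway were set in 7 lists with 112 names, of which 89 were on the array and 76 had a mean above the floor. At 2 h over 1 h, 2 of 71 compared were higher by at least 1.5-fold (2.82%) and 5 were lower (7.04%), against 5.59% and 4.84% of all probe sets. At 4 h over 1 h, 3 of 69 were higher (4.35%) and 4 lower (5.8%), against 3.38% and 5.33%. At 6 h over 1 h, 4 of 69 were higher (5.8%) and 2 lower (2.9%), against 3.76% and 5.82%. These shares lay on both sides of those of all probe sets. At 4 h over 2 h, 7 of 73 were higher (9.59%) and 5 lower (6.85%), against 4.46% and 6.95%. At 6 h over 2 h, 7 of 71 were higher (9.86%) and 2 lower (2.82%), against 4.59% and 7.12%. At 6 h over 4 h, 5 of 69 were higher (7.25%) and 0 lower, against 3.93% and 4.12%. In every pair except 2 h over 1 h the share called higher was above that of all probe sets, which was not tested. These pairs are not separate, since they reuse the same 4 arrays. Atf5, Bak1, Dnajb9 and Spcs1 were called higher both at 4 h over 2 h and at 6 h over 2 h, through the same 2 h values. Each pathway gene was counted by its brightest probe set, while the shares beside it are over all probe sets. The median of the pathway genes was 0.03 on the log2 scale at 4 h over 2 h, against 0.18 for the members and −0.01 for all genes. The members ranged from −0.76 to 0.50, with 5 higher and 3 lower, and their mean was −0.02.

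Of 12 measured chaperones and co-chaperones, 8 had a lower value at 2 h than at 1 h, and their median difference was −0.23. Over all genes with a mean above the floor, 49.8% were higher at 2 h than at 1 h. The 2 h array was the one with the actin ratio of 2.70. The part of RNA quality in the 2 h values of this and the other lists was not tested. Dnajb9, an Hsp40 partner of BiP, read 422, 299, 479 and 467 at 1, 2, 4 and 6 h, and 213, 121, 184 and 184 on its second probe set, both lowest at 2 h. Dnajc3, another Hsp40 protein and an inhibitor of PERK, read 501, 524, 447 and 549, but another of its probe sets read 567, 564, 359 and 261, so the course of this gene depended on the probe set. Sdf2 read 252, 144, 114 and 183 and had the widest spread of this list, 2.21-fold. Hyou1, the large chaperone GRP170, read 2.30 to 5.61, below the floor throughout.

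Among the disulfide and proline isomerases, 9 of 14 had a lower value at 2 h than at 1 h, and the median difference was −0.05. Of all genes with a mean above the floor, 49.8% were higher at 2 h than at 1 h. P4hb, the founding protein disulfide isomerase, read 1752, 1689, 1328 and 1698, lowest at 4 h, and its second probe set was level, at 159, 163, 168 and 162. Tmx1, a membrane thioredoxin, went against Pdia3, at 575, 870, 373 and 692. Txndc12 went with it at 2 h, at 353, 216, 379 and 321. In the list of glycan trimming genes, 7 of 7 had a lower value at 6 h than at 1 h, and the median difference was −0.29. Of all genes with a mean above the floor, 47.0% were higher at 6 h than at 1 h. The bound enters the count of 7 of 7, since Uggt1, named after its values were seen, lay just under the floor at 6 h, at 100.5. Mogs, the first glucosidase to act on new sugar chains, read 632, 534, 482 and 414. Lman2, a lectin that ferries glycoproteins, read 346, 246, 217 and 271. Its second probe set read 117, 188, 155 and 193, so whether this gene was lower at 6 h than at 1 h depended on the probe set.

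Degradation and translocation genes had a median of 0.05 at 2 h over 1 h and 0.01 at 4 h over 2 h. Herpud1, a target of the stress response that helps remove misfolded proteins, read 549, 616, 614 and 525, with 1.17-fold between the extremes. Spcs1, a subunit of the signal peptidase, read 378 at 1 h and 142 at 2 h, then 341 at 4 h and 306 at 6 h, with the 2 h array alone low. Derl2, a channel component of degradation, read 132, 195, 135 and 117, with the 2 h array alone high. Its time of highest value was that of Creld2.

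Of the sensors, Ern1 was not analysed here, since no probe set carried its symbol alone. Eif2ak3, which encodes PERK, read 136 at 1 h and 116 at 2 h, then 177 at 4 h and 156 at 6 h, near the floor. Its 4 h value was 1.52-fold that at 2 h. Atf6 read 216, 221, 273 and 187, highest at 4 h. Atf6b, its paralogue, read 258, 300, 176 and 469 on its brighter probe set and 228, 221, 283 and 308 on the other, and both were highest at 6 h. Wfs1, a membrane protein of the endoplasmic reticulum that also marks CA1 neurons, had a 4 h value 1.59-fold that at 2 h.

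Factors of the integrated stress response, which PERK feeds through ATF4, read highest at 2 h in 8 of 15 genes. Over all genes with a mean above the floor this share was 29.2%, and the difference was not tested. Some of the 8 were near ties. Eif2ak4 and Slc3a2 were both 1.01-fold at 2 h over 1 h, and Cebpb read 650 at 2 h and 633 at 6 h. Trib3 and Nupr1, given below, differed more. Both control ratios peaked at 2 h too, actin at 2.70 and Gapdh at 4.82. Whether RNA quality enters this count was not tested. The median of the list was 0.10 at 2 h over 1 h and −0.10 at 4 h over 2 h. Atf4 read 1791, 2117, 1955 and 1861, 1.18-fold from lowest to highest, and Ppp1r15a, the phosphatase subunit GADD34, read 326, 259, 298 and 306, lowest at 2 h as Xbp1 was. Atf3 was above the floor at 2 h and 4 h, at 116 and 157, and its second probe set at 1 h alone, at 199. Eif2ak1, a kinase that senses haem, read 520, 546, 267 and 424, low at 4 h, and Atf5 read 246, 136, 247 and 220, low at 2 h. Trib3 and Nupr1, known targets of this response, were named after their values were seen. Trib3 read 219 at 2 h and 141 at 4 h and Nupr1 read 275 at 2 h and 121 at 4 h, and both were below the floor at 1 h and 6 h. Against these, Ddit3 itself was low at 2 h, at 232.

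In the list of calcium handling and cell death genes, Bak1, a pore-forming member of the Bcl-2 family, read 234, 117, 296 and 393, lowest at 2 h and highest at 6 h, 3.37-fold apart. Bcap31, a membrane protein of the endoplasmic reticulum that takes part in apoptosis, read 583, 440, 479 and 735, also lowest at 2 h and highest at 6 h. The median of these 6 genes at 6 h over 4 h was 0.22, against −0.15 for the members.

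**Figure D5:**
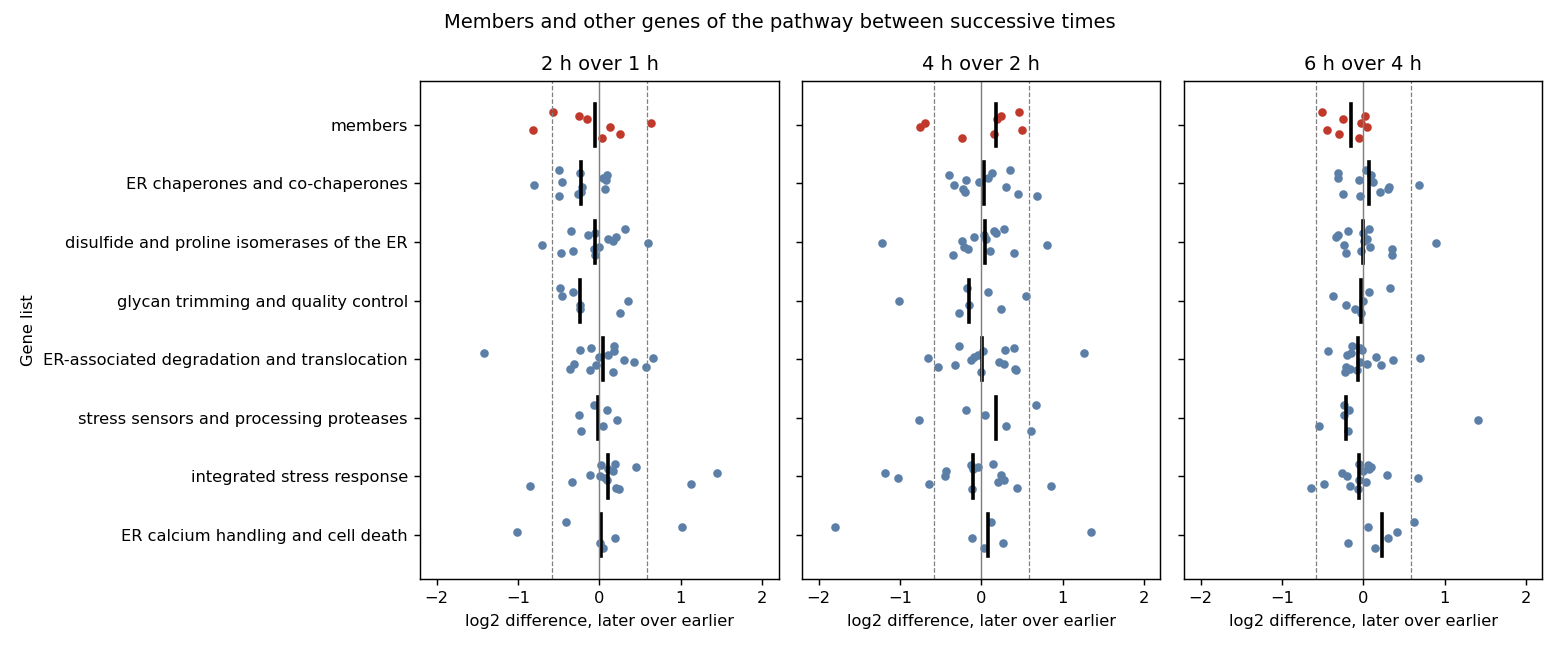
Log2 difference of the later over the earlier time (x axis) for the 8 measured member genes in red and the other pathway genes in blue, by list (rows), at 2 h over 1 h, 4 h over 2 h and 6 h over 4 h. Points are genes with a mean above the floor, with values under it set to the floor. Black bars are list medians, and dashed lines mark 1.5-fold. The member median is 0.18 at 4 h over 2 h, with 5 genes higher and 3 lower. It is −0.15 at 6 h over 4 h, with 2 higher and 6 lower.

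Genes that share the full ERSE were few on the array. Of 37 genes with the element in a RefSeq window, 12 were on it, the 5 members named above and 7 others, of which 6 had a mean above the floor. These were Adcy3, Dnajc3, Ero1b, Pan2, Pdia6 and Ptgdr2, and their time of highest value was 1 h for 2, 2 h for 1 and 6 h for 3. Pdia6, another disulfide isomerase, read 439, 316, 416 and 358, low at 2 h as Pdia3 was, while its other probe sets read 217, 213, 165 and 244, and 189, 224, 179 and 114, so its probe sets disagreed. Ero1b, the oxidase that recharges disulfide isomerases, read 288, 309, 322 and 333. The measured members with a full element had their highest value at 2 h (Hspa5 and Creld2) or 4 h (Hsp90b1 and Canx). Those with a base different had it at 1 h (Pdia3 and Ddit3) or 2 h (Pdia4). Several of these times rest on small differences. At 2 h over 1 h Hspa5 was 1.02-fold and Pdia4 1.10-fold, and Canx was 1.03-fold at 4 h over 1 h. The second Canx probe set was instead highest at 2 h. That time was the highest for 29.2% of all genes with a mean above the floor. A link between the element and the time of highest value was not tested.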

How the data were processed

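The deposited values are linear intensity values, 1 per probe set and array, and the software that made them is not given in the sources used here. The authors had brought each array to a common level before deposit, since the trimmed mean leaving out 2% at each end was 500.3 on every array. Each array was scaled again to a common trimmed mean, leaving out 66 controls and so using 12422 probe sets, with factors from 0.999 to 1.001, and log2 was taken after setting the floor at the 40th percentile, 100.8. Probe sets were named from the platform annotation: 10833 had 1 gene symbol, 396 several and 1193 none, and 10817 of the 10833 were found in RefSeq by gene identifier with 0 symbols changed. The brightest probe set stood for a gene. Promoters were RefSeq windows in GRCm38.p6.

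The members, lists and tests were chosen with earlier results of these data known. Named pathway genes were a fixed set and the 2 per list with the largest spread among genes above the floor on all 4 arrays. The motifs and the genes that share the full ERSE were chosen after the data were seen, without regard to their values. The whole windows of Hspa5 and Creld2 were instead picked by their time of highest value. The trend was fitted with limma 3.58.1 in R 4.3.3. Other steps used Python 3.11.15, NumPy 2.4.6, pandas 2.3.3, SciPy 1.17.1 and matplotlib 3.10.9. The fold rule and the trend were run on simulated data with the same noise at all intensities. The fold simulation left out probe sets near the floor. Neither run can show how the rules act at the wider spread of dim probe sets.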

Additional observations from a re-analysis of the deposited data

How the results depend on the processing

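The count of 4 member genes past 1.5-fold in some pair of times was 0 with the floor at the 60th percentile, which left 6 genes measured, and 0 with a limit of 2-fold. Leaving out an array, added after the data were seen, gave 2 without the 1 h array and 3 or 4 without another. It was 4 or 5 with unscaled values, arrays scaled to equal medians, quantile normalization, a floor at the 20th percentile, averaged probe sets and a smaller fold limit. The median at 2 h, −0.01, was −0.15 with that higher floor and 0.10 when probe sets of a gene were averaged, where the second Canx probe set enters. Of 40 alternative medians over the 4 times, the other 38 moved by less than 0.1 on the log2 scale. At 6 h the median ran from −0.30 without the 4 h array to −0.17 with arrays scaled to equal medians, which moved all probe sets by up to 0.12 between arrays. The 9 called differences kept their sign in 45 alternatives and fell under 1.5-fold in 5, Pdia4 at 4 h over 1 h and Ddit3 at 6 h over 1 h under both equal medians and quantile normalization, and Pdia4 at 6 h over 2 h under quantile normalization. The cause was not tested. The trend called 0 members in each alternative, including log2 of the hour and each array left out, with 1 residual degree of freedom. The unadjusted limma p of Pdia4 was under 0.05 in 2 of the 10 alternatives that tested it, unscaled values and averaged probe sets, and without the 2 h array that of Pdia3 was. No paired analysis was possible because each time has 1 array. Signal over background limits Pdia4, Creld2 and Calr most, and probe sets under the floor give no value.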
